A study of Mus musculus with 24 samples.

Results

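Memory B cells taken from the lung, whatever their CCR6 and CD69 status, were set against circulating memory B cells, with both genotypes pooled. All 24 libraries of the study entered: 16 lung libraries (8 sorted as CCR6+CD69+ and 8 as CCR6-CD69-) and 8 circulating libraries, chosen by their labels and not by any measured value. Class-switched memory B cells are long-lived descendants of an earlier immune response. Some settle in the tissue where antigen was met and are held there, in part by CD69, which opposes exit. They answer quickly when antigen returns. Others pass through blood and lymphoid organs, which they enter with the help of adhesion molecules and chemokine receptors.

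Airway allergy was set up with house dust mite extract given through the nose, and the allergen was given again 6 weeks later. SCAP cKO mice are SCAP fl/fl hCD20-TamCre and WT mice are SCAP +/+ hCD20-TamCre, so every library carries the tamoxifen-controlled Cre driven by human CD20. SCAP, the escort of the SREBP factors that drive sterol and fatty acid synthesis, was deleted in SCAP cKO mice ahead of the second allergen exposure. Each genotype gave 4 libraries of each population, with 2 of each 4 in each of 2 batches named in the labels. The labels give lung B cells as the source of all libraries, circulating ones included, and do not say whether replicates were separate animals. The p-values below reflect the spread among these libraries alone, which may be technical.

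Counts per library ran from 2081557 to 8566243 in lung CCR6+CD69+, from 129025 to 4641148 in lung CCR6-CD69- and from 356782 to 2466421 in circulating libraries. The smallest, SCAP cKO lung CCR6-CD69- replicate 4, had 2134 genes detected, and 3 counts in it equal 23.3 CPM (counts scaled to 1e+06 per library). Pearson's r of log2 CPM between replicates, taken across genes, which are not independent replicates, ranged from 0.427 to 0.909. Scap was counted between 0 and 446 CPM in the 12 SCAP cKO libraries and between 0 and 203 CPM in the 12 WT libraries, and these counts cover the whole gene. Of the B cell markers, Pax5, the B lineage commitment factor, was counted at 229, 801 and 1893 CPM in lung and 429, 969.9 and 2046 CPM in circulating libraries (lowest, median and highest, as in all such triplets below). It was counted in every library, as was Ms4a1, which encodes CD20, while Cd79a was not analysed here.

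In the edgeR quasi-likelihood fit, in which the lung side is the mean of the 2 lung populations, 262 of 6779 genes passed an adjusted p of 0.05, which is 3.86% of genes tested. The members are the 258 of these (3.81% of genes tested) whose change had the same sign in both lung populations: 55 were higher and 203 lower in lung. The members higher numbered 25, 32 and 28 without WT circulating replicate 4, WT circulating replicate 3 and SCAP cKO circulating replicate 3, and 83 without SCAP cKO lung CCR6-CD69- replicate 4. Their number was 24 with no batch term, 112 without the libraries under 500000 counts and 120 with no count filter. Their median log2 fold change was 3.42 for the genes higher in lung and -3.43 for the genes lower in lung. Both lung populations are compared with the same 8 circulating libraries, so a shared sign is partly fixed by the design. Passing in each lung population alone as well was met by 55 members (0.811% of genes tested), 7 higher and 48 lower. A further 141 members passed alone in CCR6+CD69+ libraries, 14 alone in CCR6-CD69- libraries and 48 in neither taken singly. By itself, CCR6+CD69+ against circulating called 288 genes (4.25%; 78 higher, 210 lower), and CCR6-CD69- against circulating called 73 (1.08%; 17 higher, 56 lower). The split depended on the tool: DESeq2 with its own size factors called 371 genes higher and 353 lower. Within batch 1 alone 161 genes passed and within batch 2 alone 86.

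**Figure D1:**
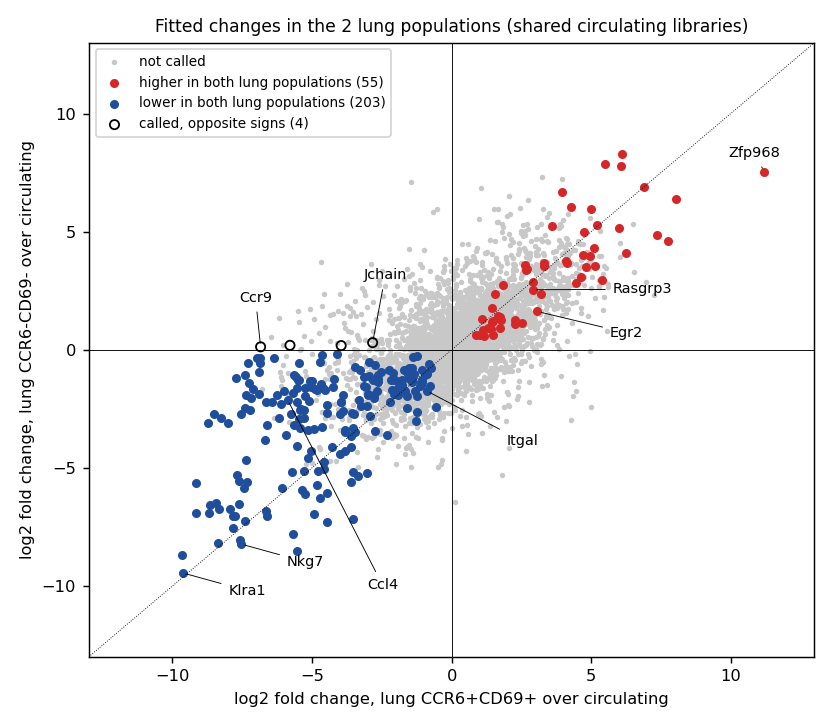
Each point is 1 of 6779 genes, with its fitted log2 fold change in lung CCR6+CD69+ over circulating on the x axis and in lung CCR6-CD69- over circulating on the y axis; the dotted line marks equal change. Red and blue mark the 55 and 203 members, open circles the 4 genes called with opposite signs, and both axes share the 8 circulating libraries.

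No lung library overlapped any circulating library for 11 of the 6779 genes (0.162%), and 10 of these 11 were members. Of all genes tested, 0.059% stood apart as higher in lung and 0.103% as lower. The 11th, Cd38, an ectoenzyme of lymphocytes, did not pass (edgeR log2 fold change 1.45 ± 0.47, adjusted p 0.0701). Rasgrp3, Gm20544 and Arhgap27os3 were higher in all 16 lung libraries. Nkg7, Klra4, Ncr1, Selplg, Serpinb6b, Cdc42se1 and Ube2h were lower in all 16. Gm20544, Arhgap27os3, Selplg, Serpinb6b, Cdc42se1, Ube2h and Cd38 are named because of this separation, after their values were seen. Gm20544 had 13.4, 38.3 and 535 CPM in lung and 0, 2.43 and 11.5 CPM in circulating libraries (edgeR log2 fold change 4.43 ± 1.10, adjusted p 0.00914). Arhgap27os3 had 26.6, 67.2 and 961 CPM in lung and 0, 12.3 and 26.1 CPM in circulating libraries (edgeR log2 fold change 3.10 ± 0.81, adjusted p 0.0141). Cdc42se1, a small Cdc42 effector, had 94.8, 215 and 304 CPM in lung and 318, 389.7 and 723 CPM in circulating libraries (edgeR log2 fold change -1.24 ± 0.34, adjusted p 0.0227). Ube2h, a ubiquitin-conjugating enzyme, had 7.75, 229 and 315 CPM in lung and 328, 483 and 544 CPM in circulating libraries (edgeR log2 fold change -1.17 ± 0.35, adjusted p 0.0414). Arhgap27os3 is named as an antisense partner of Arhgap27, and since no source used here says whether strand was used in counting, reads of the pair cannot be told apart. Its call was lost without SCAP cKO lung CCR6-CD69- replicate 4 (edgeR, adjusted p 0.0606) and that of Cdc42se1 without WT circulating replicate 1 (0.104). That of Ube2h was lost without any 1 of 16 of the 24 libraries (edgeR, highest adjusted p 0.0865). Arhgap27os3, Cdc42se1 and Ube2h also lost their calls in either batch alone. Gm20544 lost its call in batch 1 alone (edgeR, adjusted p 0.280). Separation of 1 lung population alone from the circulating libraries, given for some genes below, was not counted over all genes.

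Of 6 tested genes of MHC class II presentation, by which B cells show peptides to T cells and obtain their help, 4 passed as higher in lung and 0 as lower, with a median log2 fold change of 0.85 over the 6, beside 0.00 over all genes tested and 3.86% of genes called. The proximal promoters of class II genes carry a Y box, bound by NF-Y, whose letters are TGATTGG here. The promoters of 3 of the 4 called genes, from RefSeq (GRCm38.p6, 250 bases before to 50 after the start), are shown in 5′ to 3′ direction, with the match in capitals, because they hold the motif on the gene's strand in the same part of the promoter. H2-Eb1 lies at chr17:34305617-34305916 (+), H2-DMb2 at chr17:34144999-34145298 (+) and H2-Aa at chr17:34287774-34288073 (-).
H2-Eb1: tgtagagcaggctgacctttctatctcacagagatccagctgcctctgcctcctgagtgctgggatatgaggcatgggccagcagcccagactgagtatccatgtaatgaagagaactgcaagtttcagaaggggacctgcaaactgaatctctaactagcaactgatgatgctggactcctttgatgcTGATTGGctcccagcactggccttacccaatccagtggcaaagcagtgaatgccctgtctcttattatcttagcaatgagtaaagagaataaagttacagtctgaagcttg
H2-DMb2: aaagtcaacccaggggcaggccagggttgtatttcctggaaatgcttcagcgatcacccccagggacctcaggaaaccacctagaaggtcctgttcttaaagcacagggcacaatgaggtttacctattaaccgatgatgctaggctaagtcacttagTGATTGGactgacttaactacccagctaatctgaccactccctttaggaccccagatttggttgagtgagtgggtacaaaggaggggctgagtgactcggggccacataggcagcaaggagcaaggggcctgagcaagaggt
H2-Aa: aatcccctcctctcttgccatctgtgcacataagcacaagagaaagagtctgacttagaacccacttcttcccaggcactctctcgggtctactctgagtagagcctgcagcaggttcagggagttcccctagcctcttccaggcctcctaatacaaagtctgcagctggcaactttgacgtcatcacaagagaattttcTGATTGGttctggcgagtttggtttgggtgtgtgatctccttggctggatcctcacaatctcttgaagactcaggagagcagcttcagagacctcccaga
The match begins 61, 92 and 50 bases before the start of H2-Eb1, H2-DMb2 and H2-Aa. Searched on both strands, the letters occur in 7.82% of the 32851 promoters of the table. Among genes found there, they occur in 4 of 5 tested class II list genes (the 3 shown and H2-Oa, which did not pass). Cd74, the remaining called gene, is not among those with the letters. The letters also occur in 7 of the 48 members higher in lung that have a promoter entry (14.6%). Of all 27025 genes of the table, 2431 (9.0%) have at least 1 promoter with the letters. A match is a description of letters only.

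H2-Eb1, the beta chain of I-E, was counted at 5443, 6602 and 11356 CPM in CCR6+CD69+ lung, 4110.3, 5275 and 9607 CPM in CCR6-CD69- lung and 1660.0, 2644 and 5432 CPM in circulating libraries. A single circulating library, WT replicate 1, reached into the lung range. The gene was higher in lung (edgeR log2 fold change 1.13 ± 0.21, adjusted p 9.18e-05). H2-DMb2, part of the peptide-loading chaperone H2-DM, had 662, 1467 and 1934 CPM in CCR6+CD69+ lung, 434, 1087 and 1458 CPM in CCR6-CD69- lung and 76.0, 448 and 666 CPM in circulating libraries, and was higher in lung (edgeR log2 fold change 1.51 ± 0.30, adjusted p 3.86e-04). For H2-DMb2 the groups overlapped, and WT CCR6+CD69+ replicate 1, at 662 CPM, lay under the highest circulating value, 666 CPM. The lowest lung library for this gene was SCAP cKO CCR6-CD69- replicate 4, the smallest of the study. Cd74, the invariant chain, had 16069, 19234 and 26957 CPM in CCR6+CD69+ lung, 5573, 16876 and 23112 CPM in CCR6-CD69- lung and 7646, 9528 and 13196 CPM in circulating libraries (edgeR log2 fold change 0.81 ± 0.17, adjusted p 9.34e-04). That same small library was the only lung library under the highest circulating value. H2-Aa, the alpha chain of I-A, had 3333, 4159 and 10831 CPM in lung and 1253, 2564 and 5638 CPM in circulating libraries and overlapped between the groups (edgeR log2 fold change 0.74 ± 0.20, adjusted p 0.0189). Taken apart by batch, the log2 fold change of H2-Eb1 was 1.08 in batch 1 (adjusted p 0.00779) and 1.43 in batch 2 (adjusted p 8.70e-05), and that of Cd74 was 0.94 in batch 1 (adjusted p 0.00445) and 0.87 in batch 2 (adjusted p 0.00180). H2-Aa missed the threshold in batch 1 alone (log2 fold change 0.68, adjusted p 0.153). Its call was also lost without WT lung CCR6+CD69+ replicate 4, WT circulating replicate 2 or WT circulating replicate 4 (edgeR, highest adjusted p 0.0767). H2-Eb1 and H2-DMb2 did not pass in limma voom with sample quality weights. The H2 genes are close relatives, and how reads shared among them were assigned is not given in the sources used here. The list's summed share of counts had medians of 3.43% in CCR6+CD69+, 3.02% in CCR6-CD69- and 1.69% in circulating libraries. In bulk samples, fewer cells of a type and less RNA per cell cannot be told apart.

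**Figure D2:**
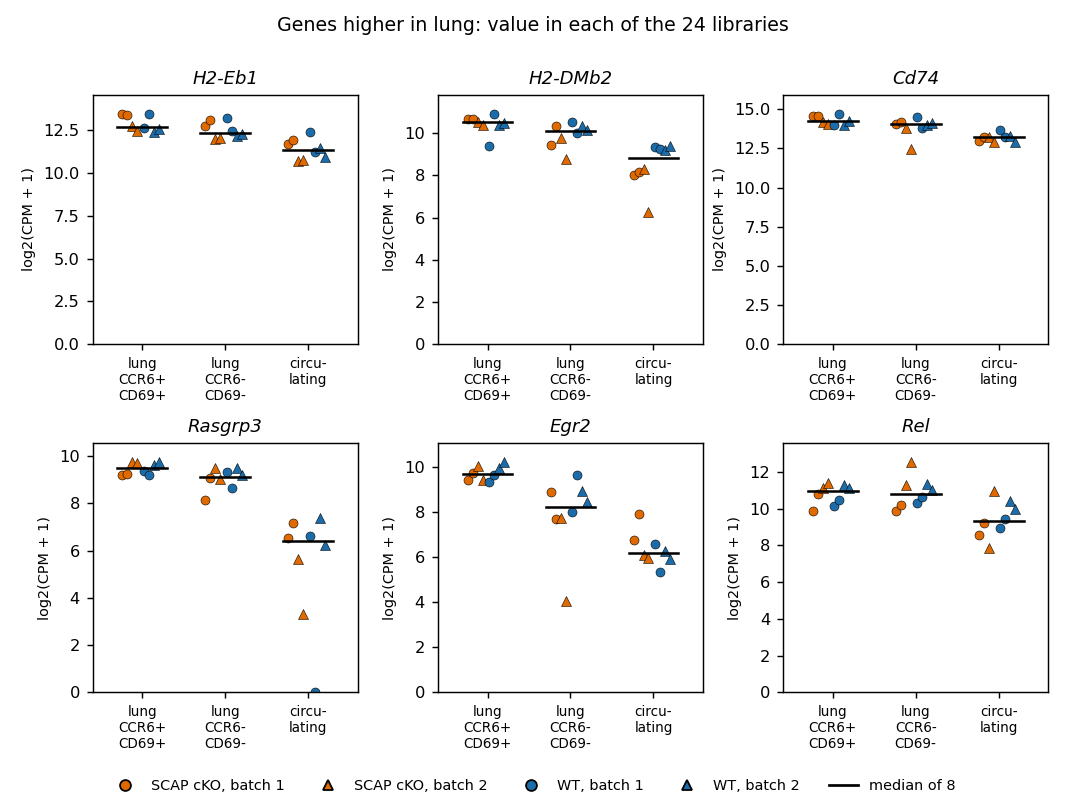
Points show log2(CPM + 1) of 6 genes in each of the 24 libraries, by population along the x axis, with colour for genotype, shape for batch and a bar for the median of 8. Rasgrp3 alone among the 6 has every lung library above every circulating library.

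Of 18 tested genes of signalling from the B cell receptor, 1 passed as higher in lung and 0 as lower, beside 3.86% of all genes called, with a list median of -0.06. Rasgrp3, a guanine nucleotide exchange factor that links the receptor to Ras, was counted at 587, 730.2 and 867 CPM in CCR6+CD69+ lung, 286, 562 and 732 CPM in CCR6-CD69- lung and 0, 83.4 and 165 CPM in circulating libraries (edgeR log2 fold change 2.73 ± 0.47, adjusted p 4.22e-05). Its lowest lung value, 286 CPM, was above the highest circulating value, 165 CPM. Its log2 fold change was 2.54 in batch 1 (adjusted p 0.0116) and 3.56 in batch 2 (adjusted p 2.29e-04), and 2.62 in SCAP cKO and 2.83 in WT libraries. Map2k1, the kinase MEK1 downstream of Ras, had 105, 271 and 984 CPM in lung and 4.42, 92.1 and 149.8 CPM in circulating libraries (edgeR log2 fold change 1.61 ± 0.47, adjusted p 0.0359). Dusp4, a phosphatase that acts on the kinases of that pathway, had 0, 494 and 978 CPM in lung and 17.7, 158 and 229 CPM in circulating libraries (edgeR log2 fold change 1.57 ± 0.47, adjusted p 0.0446). Both overlapped between groups and lost their call in each batch alone, Map2k1 in 10 and Dusp4 in 19 of the 24 fits that left out 1 library too, and both are named after their values were seen.

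The early response list, transcripts induced within hours of receptor triggering, did not move as one. Of its 9 tested genes 1 passed as higher and 3 as lower (median -0.55), beside 0.811% and 3.05% of all genes. Egr2, a transcription factor induced by antigen receptors, was counted at 636, 808 and 1179 CPM in CCR6+CD69+ lung, 15.5, 299 and 778 CPM in CCR6-CD69- lung and 39.2, 70.5 and 240.2 CPM in circulating libraries (edgeR log2 fold change 2.35 ± 0.43, adjusted p 8.17e-05). Every CCR6+CD69+ library lay above every circulating library, whereas 3 CCR6-CD69- libraries lay below the highest circulating one. In CCR6-CD69- libraries alone its log2 fold change of 1.62 missed the threshold (adjusted p 0.0534). Ccl4, an inflammatory chemokine, ran the other way, with 0, 13.0 and 23.7 CPM in CCR6+CD69+ lung, 30.2, 186 and 481 CPM in CCR6-CD69- lung and 264, 660.5 and 1428 CPM in circulating libraries (edgeR log2 fold change -4.00 ± 0.38, adjusted p 3.97e-12). Every CCR6+CD69+ library lay below every circulating library for Ccl4, while the CCR6-CD69- libraries overlapped them. Tnfrsf9, the co-stimulatory receptor 4-1BB, had 0, 0.737 and 4.44 CPM in lung and 1.04, 122 and 522 CPM in circulating libraries (edgeR log2 fold change -6.81 ± 0.93, adjusted p 1.90e-07). Of the 8 circulating libraries, 3, all in batch 1, lay within the lung range. Tnfrsf9 missed the threshold in batch 1 alone (edgeR log2 fold change -5.08, adjusted p 0.0741). Nr4a2, an orphan nuclear receptor of the early response, had 257, 602 and 899 CPM in CCR6+CD69+ lung, 0, 164 and 437 CPM in CCR6-CD69- lung and 232, 853 and 1717 CPM in circulating libraries (edgeR log2 fold change -1.49 ± 0.37, adjusted p 0.0105). It lost its call in each batch alone. Ccl4 and Tnfrsf9 are also produced by natural killer and T cells, whose markers are given below; their part in these falls was not tested.

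The NF-kB and CD40 list had 1 of 13 tested genes higher and 0 lower (median 0.70, 11 of 13 above 0). Over all genes 0.811% were called higher and 3.05% lower, shares that also stand beside the B cell lists of this paragraph. Rel, the c-Rel subunit of NF-kB, had 932, 1991 and 2699 CPM in CCR6+CD69+ lung, 944, 1806 and 5952 CPM in CCR6-CD69- lung and 234, 642 and 1968 CPM in circulating libraries (edgeR log2 fold change 1.18 ± 0.27, adjusted p 0.00281). The groups overlapped, with SCAP cKO circulating replicate 4 at 1968 CPM and the highest lung value in SCAP cKO CCR6-CD69- replicate 4, and the call was lost in batch 2 alone (log2 fold change 1.36, adjusted p 0.184). Ms4a1 was the B cell identity gene called higher, at 1218, 1478 and 1718 CPM in CCR6+CD69+ lung, 580.2, 994 and 1312 CPM in CCR6-CD69- lung and 387, 527 and 899 CPM in circulating libraries (edgeR log2 fold change 0.88 ± 0.26, adjusted p 0.0361). It lost that call in either batch alone. Every CCR6+CD69+ library lay above every circulating library for Ms4a1. Spib, an Ets factor of B cells that plasmacytoid dendritic cells use as well, was the one called lower, at 163, 528 and 1173 CPM in lung and 473, 1210.5 and 3751 CPM in circulating libraries (edgeR log2 fold change -1.64 ± 0.28, adjusted p 2.01e-05). Spib missed the threshold in batch 2 alone (log2 fold change -1.11, adjusted p 0.249). The other 8 of 10 tested B cell identity genes did not pass, Pax5 (-0.21 ± 0.26, adjusted p 0.762) among them. Of 9 tested memory B cell genes, Fcrl5, an Fc receptor-like molecule of antigen-experienced B cells, passed as higher, at 0.752, 124 and 248 CPM in lung and 0, 4.85 and 64.5 CPM in circulating libraries (edgeR log2 fold change 2.79 ± 0.85, adjusted p 0.0440), and lost its call in either batch alone. With 1 library left out, the call of Ms4a1 was lost in 12 of 24 fits (edgeR, highest adjusted p 0.0992) and that of Fcrl5 in 16 (0.0907).

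Other members higher in lung included Tbc1d9, a Rab GTPase-activating protein, and Abca1, the cholesterol exporter. Tbc1d9 was counted at 92.1, 179 and 235 CPM in CCR6+CD69+ lung, 27.4, 163 and 426 CPM in CCR6-CD69- lung and 0.433, 12.4 and 62.6 CPM in circulating libraries (edgeR log2 fold change 3.42 ± 0.70, adjusted p 6.79e-04) and is named after its values were seen. Its CCR6+CD69+ libraries all lay above the circulating ones, and its call was lost in batch 1 alone and in SCAP cKO libraries alone. Abca1, a target of the sterol-sensing LXR receptors, had 209, 596 and 1119 CPM in CCR6+CD69+ lung, 90.1, 584 and 1170.3 CPM in CCR6-CD69- lung and 85.6, 172 and 266 CPM in circulating libraries (edgeR log2 fold change 1.54 ± 0.36, adjusted p 0.00462), and missed the threshold in batch 1 alone. The other tested LXR target was Pltp, a phospholipid transfer protein that is also on the plasmacytoid dendritic cell list. Pltp was lower in lung, at 0, 24.0 and 312 CPM in lung and 91.7, 331 and 723 CPM in circulating libraries (edgeR log2 fold change -3.07 ± 0.48, adjusted p 4.39e-06). Its call was lost in batch 2 alone (edgeR log2 fold change -3.10, adjusted p 0.106).

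The 12 members with the largest fitted rises among those with at least 5 CPM on the higher side had few or no counts in circulating libraries. Zfp968, a zinc finger gene, had 979 counts over all lung libraries and 0 over all circulating ones. Set against a floor of 3 counts over the circulating group, that is at least 91.1-fold higher in lung. By the same floor Cd101, an immunoglobulin-superfamily receptor, was at least 24.5-fold higher, Treml4 at least 25.3-fold and Gnb5, a G protein beta subunit, at least 22.4-fold. Where circulating libraries together held 1 to 3 counts, the pooled ratio of lung over circulating was 77.1 for Grhl1 (95% counting interval 13.7 to 3055), 72.0 for Cdin1 (12.8 to 2857), 66.8 for Cd302 (22.8 to 325) and 42.7 for Sirpb1b (14.5 to 208). Such intervals cover counting error only. Without the 2 libraries led by Chil3, in which the macrophage and monocyte list took 4.40% (WT lung CCR6-CD69- replicate 2) and 6.09% (SCAP cKO lung CCR6-CD69- replicate 1) of counts, Cd302 and Sirpb1b did not pass. Their log2 fold changes there were 2.42 (edgeR, adjusted p 0.501) and 3.99 (0.180). Klhl7 (5.07, edgeR, adjusted p 0.0608) and Triap1 (4.79, 0.0608) did not pass there either, beside 4.86 and 4.71 with all libraries. The part of macrophages and monocytes was not tested. The ratio was 55.3 for Enoph1 (21.5 to 203), 51.7 for Crtap (23.7 to 141) and 34.0 for Klhl7 (17.2 to 79.0), and Triap1 completed the 12 (edgeR log2 fold change 4.71 ± 1.34, adjusted p 0.0293). None was counted in every lung library, and all 12 lost their call in batch 1 alone. In batch 2 alone 11 of the 12 lost it too, all but Zfp968. Zfp968 had a log2 fold change of 3.25, adjusted p 1.00 in batch 1 alone, and did not pass in DESeq2 (3.55, adjusted p 0.341) or limma voom (3.89, adjusted p 0.0706). Cd101, Treml4 and Gnb5 also passed in neither tool (adjusted p 0.0907, 0.0730 and 0.199 in DESeq2, and 0.209, 0.577 and 0.423 in limma voom). Grhl1, Sirpb1b and Cd302 passed in DESeq2 but not in limma voom (adjusted p 0.324, 0.308 and 0.238). Enoph1, Cdin1, Crtap, Klhl7 and Triap1 passed in both. With 1 library left out, the call was lost in 18 of 24 fits for Klhl7, 14 for Gnb5, 11 each for Cd302 and Sirpb1b, 9 for Grhl1, 6 each for Treml4 and Triap1 and 3 for Cdin1. That of Zfp968 and that of Cd101 were lost without WT circulating replicate 3 or replicate 4 (edgeR, highest adjusted p 0.0683 and 0.0714), and Enoph1 and Crtap kept theirs in all 24.

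Of 14 tested genes of recirculation and egress, 4 passed as lower in lung and 0 as higher, against 3.05% of all genes called lower, with a list median of -0.07. Selplg, whose product PSGL-1 binds P-selectin, had 109, 308 and 391 CPM in CCR6+CD69+ lung, 85.3, 887 and 1094 CPM in CCR6-CD69- lung and 1105, 2281 and 3508 CPM in circulating libraries (edgeR log2 fold change -2.33 ± 0.27, adjusted p 2.54e-09). Its lung and circulating libraries did not overlap; it was not on a list and is named after its values were seen. Itgal, the alpha chain of the integrin LFA-1, had 510.0, 896 and 1071 CPM in CCR6+CD69+ lung, 139.5, 431 and 671 CPM in CCR6-CD69- lung and 855, 1473 and 2517 CPM in circulating libraries (edgeR log2 fold change -1.32 ± 0.25, adjusted p 2.28e-04). All 8 CCR6-CD69- libraries lay below every circulating library, while the CCR6+CD69+ libraries overlapped them. Itgal missed the threshold in batch 1 alone (edgeR log2 fold change -1.03, adjusted p 0.0642). Ccr2, the receptor for inflammatory monocyte chemokines, which is on the macrophage list too, had 0.480, 5.92 and 49.7 CPM in CCR6+CD69+ lung, 0, 45.0 and 88.0 CPM in CCR6-CD69- lung and 8.77, 456 and 809 CPM in circulating libraries (edgeR log2 fold change -4.36 ± 0.55, adjusted p 3.01e-08). Of the circulating libraries only SCAP cKO replicate 1, at 8.77 CPM, was within the lung range. Lef1, a Wnt pathway factor of naive and early lymphocytes, had 0, 0 and 4.32 CPM in lung and 0, 1.84 and 151 CPM in circulating libraries (edgeR log2 fold change -7.03 ± 1.37, adjusted p 3.55e-04), and the call was lost in batch 2 alone. S1pr1, the receptor that drives exit along sphingosine 1-phosphate, did not pass (log2 fold change -0.04 ± 0.50, adjusted p 0.980), nor did Ccr7 (0.58 ± 0.34, adjusted p 0.415).

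**Figure D3:**
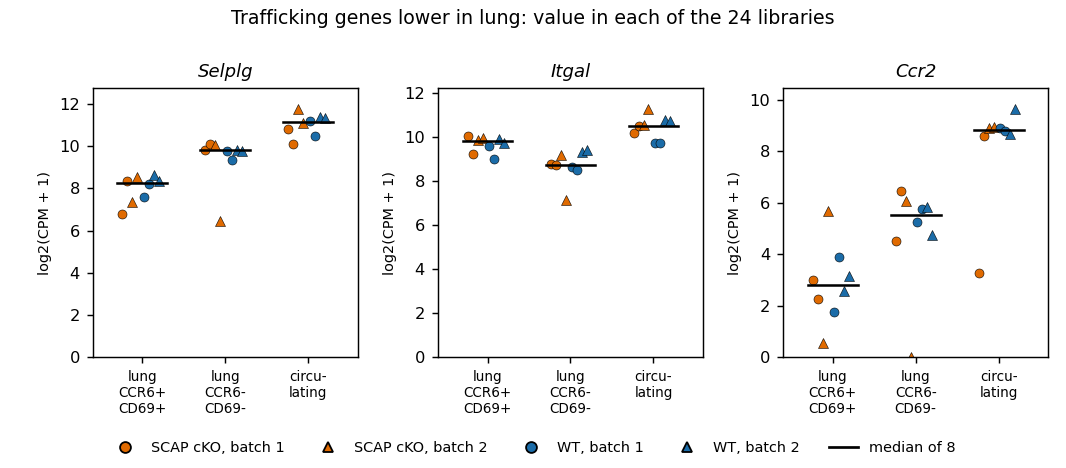
Points show log2(CPM + 1) of 3 trafficking genes in each library, by population, with colour for genotype, shape for batch and a bar for the median of 8. For Selplg every lung library lies below every circulating library, and for Ccr2 the medians are 5.92, 45.0 and 456 CPM from left to right.

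No tested gene of tissue residency passed in edgeR. This was 0 of 9 in either direction, beside 3.86% of all genes called, and the median was 0.04. With 9 genes, 0 calls cannot be told apart from that share. At an unadjusted p under 0.05 there were 2, beside 1124 of all 6779 genes. DESeq2 called 1 higher and limma voom 0. Cd69, the sorting marker, was counted at 659, 1088 and 1680.0 CPM in CCR6+CD69+ lung, 603, 834 and 4224 CPM in CCR6-CD69- lung and 39.2, 638 and 1328 CPM in circulating libraries (edgeR log2 fold change 0.65 ± 0.34, adjusted p 0.348). Rgs1, a brake on chemokine receptor signalling, had 801, 1038 and 1179 CPM in CCR6+CD69+ lung, 306, 536 and 1581 CPM in CCR6-CD69- lung and 249, 346 and 695 CPM in circulating libraries (edgeR log2 fold change 0.92 ± 0.30, adjusted p 0.0704). Rgs2 had a log2 fold change of -0.57 ± 0.27 (adjusted p 0.258). Rgs1 passed in CCR6+CD69+ libraries alone (1.23, adjusted p 0.0197). Ccr6 and Itgae were not analysed here.

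Of 6 tested BCL2-family genes 2 passed, both lower in lung (median -0.31), and both are promoters of cell death. Over all genes 3.05% were called lower, the share to set beside each list of this paragraph. Bcl2l11, which encodes BIM, had 181, 319.9 and 449 CPM in CCR6+CD69+ lung, 119, 331 and 1163 CPM in CCR6-CD69- lung and 781, 892 and 1756 CPM in circulating libraries (edgeR log2 fold change -1.67 ± 0.30, adjusted p 7.34e-05). Apart from SCAP cKO CCR6-CD69- replicate 4, at 1163 CPM, every lung library lay below every circulating library. Bcl2l11 missed the threshold in batch 2 alone (log2 fold change -1.08, adjusted p 0.251). Pmaip1, which encodes NOXA, had 62.0, 261 and 442 CPM in lung and 146, 478 and 814 CPM in circulating libraries (edgeR log2 fold change -1.20 ± 0.36, adjusted p 0.0388) and lost its call in either batch alone and in 12 of 24 fits with 1 library left out (edgeR, highest adjusted p 0.159). Hsp90b1, the endoplasmic reticulum chaperone GRP94, was the 1 of 6 chaperones called lower, at 685, 1553 and 4724 CPM in lung and 1377, 3118 and 3630.5 CPM in circulating libraries (edgeR log2 fold change -0.85 ± 0.21, adjusted p 0.00785), and missed the threshold in batch 2 alone. Of 6 tested plasma cell genes, Sdc1, the plasma cell surface marker CD138, was lower at 0, 3.79 and 235 CPM in lung and 0, 35.5 and 315 CPM in circulating libraries (edgeR log2 fold change -3.88 ± 1.08, adjusted p 0.0236), and Jchain had opposite signs in the lung populations. The call of Hsp90b1 was lost without SCAP cKO circulating replicate 1 (edgeR, adjusted p 0.0627), and that of Sdc1 without WT circulating replicate 1, SCAP cKO circulating replicate 2 or SCAP cKO circulating replicate 4 (highest adjusted p 0.141). Sdc1 also did not pass in limma voom (log2 fold change -1.73, adjusted p 0.238), in batch 1 alone (adjusted p 0.131), in batch 2 alone (0.184) or with the replicate block (0.263).

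**Figure D4:**
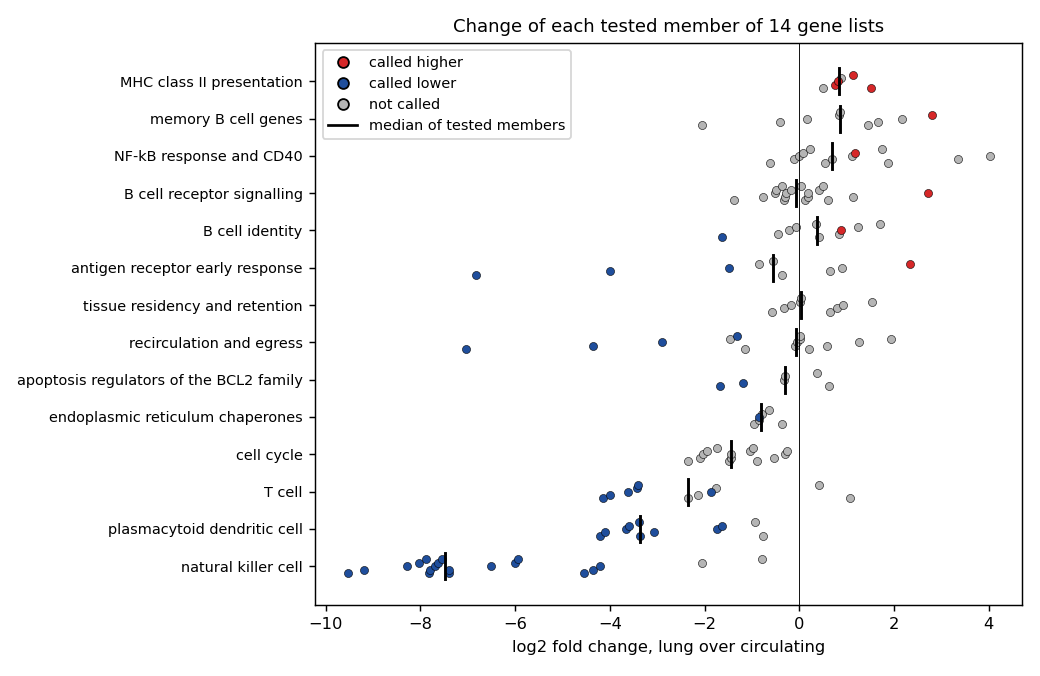
Each point is a tested member of 1 of 14 gene lists, with its log2 fold change of lung over circulating on the x axis; colour marks the call and the bar the list median. The list medians run from 0.87 for memory B cell genes to -7.47 for natural killer cell markers.

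Of the 12 largest falls in lung, 10 were of natural killer cell genes. Of 20 tested markers of that list 18 passed as lower and 0 as higher, with a median log2 fold change of -7.47, against 3.05% of all genes called lower. Their summed share of counts was 0.00896 to 0.0227% in CCR6+CD69+, 0 to 0.0219% in CCR6-CD69- and 0.209 to 0.437% in circulating libraries. The 10 tested B cell identity genes together took 0.436 to 0.795% in lung and 0.394 to 0.744% in circulating libraries. Of the 20 genes on that list 10 were analysed, and of the 30 natural killer genes 20, so the sums are not directly comparable. Nkg7, a granule protein of cytotoxic lymphocytes, was counted at 0, 4.45 and 10.2 CPM in lung and 281, 697 and 1354 CPM in circulating libraries (edgeR log2 fold change -7.88 ± 0.58, adjusted p 3.39e-14). Eomes, the T-box factor of natural killer cells, had 0, 0.974 and 19.7 CPM in lung and 13.7, 448 and 902 CPM in circulating libraries (edgeR log2 fold change -8.03 ± 0.71, adjusted p 3.75e-12). Ncr1, the activating receptor NKp46, had 0, 0.648 and 6.34 CPM in lung and 14.8, 197 and 695 CPM in circulating libraries (edgeR log2 fold change -7.39 ± 0.78, adjusted p 1.51e-10). Nkg7 and Ncr1 were separate in every library, and for Eomes only SCAP cKO circulating replicate 1, at 13.7 CPM, fell within the lung range. Whether these transcripts came from natural killer cells, and their part in any other result, was not tested.

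The same list held the Ly49 receptors, which read MHC class I on other cells. Klra1 had 9 counts over all lung libraries and 1591 over all circulating ones, a ratio of 633 in favour of circulating (95% counting interval 333 to 1387; edgeR log2 fold change -9.54 ± 1.01, adjusted p 2.08e-10). Klra4 had 0, 0 and 2.53 CPM in lung and 42.0, 89.7 and 378 CPM in circulating libraries (edgeR log2 fold change -8.28 ± 0.82, adjusted p 2.53e-11). Klra7 had 0, 0 and 1.78 CPM in lung and 0, 105 and 440.0 CPM in circulating libraries (edgeR log2 fold change -9.19 ± 1.05, adjusted p 1.57e-09), and Klra8 had 0, 0 and 13.9 CPM in lung and 0, 78.3 and 272 CPM in circulating libraries (edgeR log2 fold change -7.80 ± 1.04, adjusted p 9.29e-08). Klra genes are close copies: over the longest open reading frames of GENCODE M21 transcripts (GRCm38, chromosome 6), the 6 pairs among these 4 genes were 74.0 to 88.0% identical. The first 90 coding bases of Klra1 and Klra4 are shown because the separate counts of the pair rest on such differences; the 27 positions that differ are in capitals.
Klra1: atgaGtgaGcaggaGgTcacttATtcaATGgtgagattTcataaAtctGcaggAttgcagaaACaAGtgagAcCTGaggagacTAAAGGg
Klra4: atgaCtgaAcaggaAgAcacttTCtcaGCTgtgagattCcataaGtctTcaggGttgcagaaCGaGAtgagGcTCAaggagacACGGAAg
How reads fitting several copies were counted is not given in the sources used here, so the split among Klra genes is uncertain.

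Further members of this list among the 12 largest falls were Klre1 (-7.68 ± 0.82), an inhibitory or activating lectin-like receptor subunit, Klrb1c (-7.62 ± 0.93), the NK1.1 antigen, the kinase-like Styk1 (-7.54 ± 1.05) and the serpin Serpinb9b (-7.82 ± 1.14). Samd3 (-7.45 ± 0.91) and Cd160 (-7.44 ± 1.10), a receptor of cytotoxic lymphocytes, completed them off the list. Serpinb6b, another serpin of the list, had 0, 20.4 and 57.5 CPM in lung and 104, 428 and 881 CPM in circulating libraries (edgeR log2 fold change -4.21 ± 0.55, adjusted p 5.82e-08). The chemokine Xcl1 (-6.01 ± 0.93, adjusted p 3.48e-06) and both chains of the interleukin-18 receptor, Il18r1 (-4.22 ± 0.67, adjusted p 6.01e-06) and Il18rap (-5.45 ± 0.71, adjusted p 1.10e-07), were lower too in edgeR, and are named after their values were seen. In batch 2 alone Xcl1 (edgeR, adjusted p 0.142), Il18r1 (0.111) and Cd160 (0.0866) missed the threshold, while Il18rap passed (0.00118).

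T cell genes were lower in 6 of 11 tested, with 0 higher and a median of -2.35, against 3.05% of all genes called lower. The count was 3 in batch 1 alone, 0 in batch 2 alone, 1 in SCAP cKO libraries alone and 2 in WT libraries alone. Cd4, a T cell co-receptor also found on some dendritic cells, had 0, 8.08 and 29.5 CPM in CCR6+CD69+ lung, 0, 124 and 260.3 CPM in CCR6-CD69- lung and 42.0, 279 and 1248 CPM in circulating libraries (edgeR log2 fold change -3.43 ± 0.54, adjusted p 8.91e-06). Cd247, the zeta chain of the T cell and NKp46 receptor complexes, had 0, 1.11 and 27.9 CPM in lung and 1.04, 41.9 and 259 CPM in circulating libraries (edgeR log2 fold change -4.14 ± 0.99, adjusted p 0.00507). The kinase Lck (-1.86 ± 0.50, adjusted p 0.0190) and the adaptor Lat (-3.41 ± 0.93, adjusted p 0.0199) passed as well in edgeR. Calls were lost for Cd247 without SCAP cKO circulating replicate 1 (adjusted p 0.144), for Lck without SCAP cKO circulating replicate 3 (0.0917) and for Lat without that library or WT circulating replicate 1 (edgeR, highest adjusted p 0.201). The summed share of the T cell list was 0.0105 to 0.0304% in CCR6+CD69+, 0.00233 to 0.0936% in CCR6-CD69- and 0.0479 to 0.249% in circulating libraries.

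Plasmacytoid dendritic cell genes fell in 9 of 11 tested, with 0 higher and a median of -3.36, against 3.05% of all genes called lower. In batch 2 alone 5 of the 11 passed. Of the 9, 8 fell in both lung populations. Their summed share was 0.203 to 0.283% in CCR6+CD69+, 0.366 to 0.780% in CCR6-CD69- and 0.666 to 1.13% in circulating libraries. Irf8, a factor that both B cells and plasmacytoid dendritic cells use, was its most abundant gene in circulating libraries, at 579, 810.3 and 929 CPM in CCR6+CD69+ lung, 955, 1261 and 3066 CPM in CCR6-CD69- lung and 2008, 3155 and 4185 CPM in circulating libraries (edgeR log2 fold change -1.74 ± 0.21, adjusted p 8.96e-09). Tex2 had 2.88, 10.9 and 18.3 CPM in CCR6+CD69+ lung, 113, 193 and 378 CPM in CCR6-CD69- lung and 178, 433 and 1032 CPM in circulating libraries (edgeR log2 fold change -3.38 ± 0.38, adjusted p 1.49e-09). Lifr, a cytokine receptor chain, had 0, 5.06 and 10.7 CPM in CCR6+CD69+ lung, 7.75, 101 and 177 CPM in CCR6-CD69- lung and 72.3, 259 and 792 CPM in circulating libraries (edgeR log2 fold change -4.10 ± 0.54, adjusted p 8.28e-08). For Irf8, Tex2 and Lifr every CCR6+CD69+ library lay below every circulating library, while the CCR6-CD69- libraries overlapped them. The lung populations differed from each other for 7 of the 11, all lower in CCR6+CD69+. Irf7, the interferon regulatory factor that these cells carry in quantity, was the 1 of 11 tested interferon response genes that passed, at 0, 54.4 and 337 CPM in lung and 81.3, 485 and 1206 CPM in circulating libraries (edgeR log2 fold change -3.09 ± 0.56, adjusted p 3.10e-04).

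**Figure D5:**
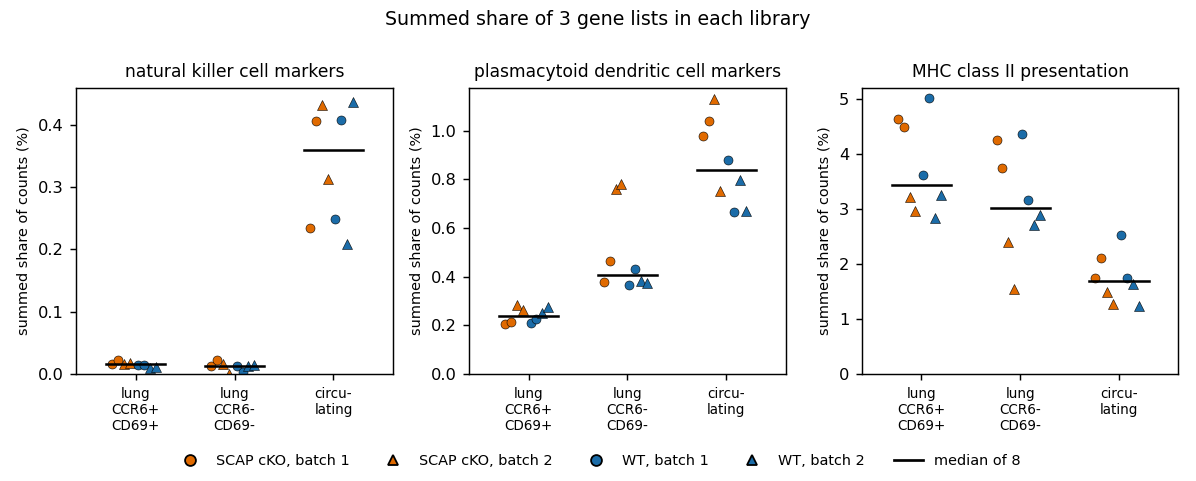
Points show the summed share of counts, in percent, of natural killer cell markers, plasmacytoid dendritic cell markers and MHC class II genes in each library, by population, with colour for genotype, shape for batch and a bar for the median of 8. For natural killer cell markers the highest lung library stands at 0.0227% and the lowest circulating library at 0.209%.

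A pair of signalling adaptors of innate cells, Tyrobp and Fcer1g, were lower in lung and are named after their values were seen. Both missed the threshold in batch 2 alone (edgeR, adjusted p 0.0552 for Tyrobp and 0.211 for Fcer1g). Tyrobp, the adaptor DAP12, had 7.59, 30.6 and 39.5 CPM in CCR6+CD69+ lung, 0, 276 and 781 CPM in CCR6-CD69- lung and 219, 571 and 2032 CPM in circulating libraries (edgeR log2 fold change -3.10 ± 0.36, adjusted p 4.12e-09). Fcer1g, the common Fc receptor gamma chain, had 5.28, 13.0 and 98.5 CPM in CCR6+CD69+ lung, 0, 117 and 623 CPM in CCR6-CD69- lung and 52.6, 418 and 899 CPM in circulating libraries (edgeR log2 fold change -2.72 ± 0.43, adjusted p 5.13e-06). Clec10a, a lectin of dendritic cells and macrophages, was the 1 of 9 conventional dendritic cell genes that passed, at 0, 2.31 and 95.0 CPM in lung and 17.8, 81.5 and 344 CPM in circulating libraries (edgeR log2 fold change -4.93 ± 0.80, adjusted p 7.98e-06). Of 17 tested macrophage and monocyte genes 1 passed, Ccr2, as lower. Over all genes 3.05% were called lower, the share to set beside this list and the conventional dendritic cell list. The macrophage and monocyte list took 0.0307 to 0.510% of counts in CCR6+CD69+, 0.133 to 6.09% in CCR6-CD69- and 0.118 to 0.711% in circulating libraries. The part of these cells in the results was not tested.

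Rag1, Dntt, Sox4, Satb1, Cd27 and Fth1 are single members lower in lung, named after their values were seen. Rag1, the recombinase of antigen receptor genes, had 0, 0.211 and 2.54 CPM in lung and 0, 43.8 and 321 CPM in circulating libraries (edgeR log2 fold change -7.09 ± 1.01, adjusted p 5.66e-07). Dntt, the terminal transferase that adds bases at their joints, had 0, 0.700 and 3.33 CPM in CCR6+CD69+ lung, 0, 45.2 and 91.8 CPM in CCR6-CD69- lung and 1.47, 40.3 and 355 CPM in circulating libraries (edgeR log2 fold change -3.93 ± 0.79, adjusted p 4.46e-04). Sox4 (-4.88 ± 0.87, adjusted p 5.61e-05) and the chromatin organiser Satb1 (-2.40 ± 0.47, adjusted p 2.98e-04) were lower in edgeR too. Cd27, a memory marker of human B cells that mouse T and natural killer cells carry, had 0, 0 and 91.8 CPM in lung and 0, 32.1 and 187 CPM in circulating libraries (edgeR log2 fold change -4.77 ± 1.10, adjusted p 0.00375). Fth1, the ferritin heavy chain, had 1132, 1355 and 2243 CPM in CCR6+CD69+ lung, 1420.2, 2764 and 8688 CPM in CCR6-CD69- lung and 1831, 3306 and 6989 CPM in circulating libraries (edgeR log2 fold change -0.76 ± 0.20, adjusted p 0.0195). The call of Fth1 was lost without SCAP cKO circulating replicate 2 (edgeR, adjusted p 0.0767), and that of Dntt without WT circulating replicate 3 or SCAP cKO circulating replicate 1 (highest adjusted p 0.135). Fth1 also lost its call in batch 1 alone (edgeR, adjusted p 0.127) and in batch 2 alone (0.387). Sox4 and Satb1 lost theirs in batch 1 alone (edgeR, adjusted p 0.127 and 0.171). Dntt and Cd27 lost theirs in batch 2 alone (0.269 and 0.232), and Rag1 kept its call in each batch.

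Calls among lipid genes, the pathway of SCAP, are set beside all 6779 genes tested. Of those, 3.86% were called and 1124 had an unadjusted p under 0.05 in edgeR. Of 12 tested cholesterol synthesis genes 0 passed (median -0.54), with Mvk at 3.29 ± 1.32 (adjusted p 0.164) and Pmvk at -1.31 ± 0.57 (adjusted p 0.206) having the smallest p. In edgeR 3 of these 12 had an unadjusted p under 0.05, and DESeq2 called 1 higher and limma voom 0. Of 10 tested genes of SREBP control and sterol uptake, Lrp8, a lipoprotein receptor, was lower, at 0, 15.9 and 38.3 CPM in CCR6+CD69+ lung, 7.75, 174 and 433 CPM in CCR6-CD69- lung and 258, 532 and 1008 CPM in circulating libraries (edgeR log2 fold change -3.58 ± 0.44, adjusted p 3.01e-08), with the lung populations differing (-3.91 ± 0.59, adjusted p 1.13e-05). Of 12 fatty acid synthesis genes, 1 passed, Fads2, with opposite signs in the lung populations. Scap did not pass (edgeR log2 fold change -0.74 ± 0.58, adjusted p 0.587).

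No gene of several further lists passed. Over all 6779 genes, 3.86% were called and 1124 had an unadjusted p under 0.05 in edgeR. All 14 tested cell cycle genes had fold changes below 0 (median -1.44), with 4 at an unadjusted p under 0.05 in edgeR, and 3 called lower by DESeq2 and 2 by limma voom. In batch 1 alone 4 of the 14 lay above 0 (median -0.85), and 2 did so in batch 2 alone and 2 in WT libraries alone. The cell cycle list was led by Mcm7 (-2.04 ± 0.63, adjusted p 0.0536) and Mcm6 (-1.48 ± 0.52, adjusted p 0.0999). The genes with the smallest p on the others were Fas (1.88 ± 0.91) and Mef2b (2.01 ± 1.42) for germinal centre, Vegfa (-2.62 ± 0.84) and Aldoa (0.85 ± 0.40) for glycolysis and hypoxia, and Hsph1 (1.23 ± 0.57) and Jun (-0.56 ± 0.28) for dissociation stress. Rpl11 (0.39 ± 0.24) and Rps27 (0.50 ± 0.39) led the ribosomal proteins, and Csf3r (4.19 ± 1.45) and Il1b (1.32 ± 0.52) the granulocyte genes. Col3a1 (-4.14 ± 1.54) and Pecam1 (-0.45 ± 0.46) led the epithelium, endothelium and stroma list, Gata3 (1.09 ± 1.23) and Kit (0.75 ± 1.29) the innate lymphoid and mast cell list, and Pf4 (-0.40 ± 1.59) was the only tested red cell and platelet gene. Unadjusted p under 0.05 was reached in edgeR by 1 of 5 germinal centre, 2 of 9 glycolysis and hypoxia, 1 of 13 dissociation stress, 2 of 6 granulocyte and 1 of 6 epithelium, endothelium and stroma genes, and by 0 genes of the 3 other lists. DESeq2 called 1 glycolysis and hypoxia gene lower and 2 granulocyte genes higher, limma voom 1 glycolysis and hypoxia gene lower, and neither called a gene of the other lists of this paragraph apart from cell cycle. Kit was at 2751 CPM in SCAP cKO lung CCR6-CD69- replicate 4 and at 205 CPM or less in every other library, and Kit, Pf4 and Pecam1 changed sign under some settings.

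The 4 genes called in the pooled comparison with opposite signs were below circulating in CCR6+CD69+ and slightly above it, without passing, in CCR6-CD69-. Jchain, which links the units of polymeric antibodies, had 84.4, 150.2 and 275 CPM in CCR6+CD69+ lung, 325, 963 and 4677 CPM in CCR6-CD69- lung and 317, 880.0 and 2597 CPM in circulating libraries, with log2 fold changes of -2.83 in CCR6+CD69+ and 0.30 in CCR6-CD69- libraries. Fads2, a fatty acid desaturase (-5.79 in CCR6+CD69+ and 0.19 in CCR6-CD69- libraries), and Ccr9, a homing receptor that plasmacytoid dendritic cells carry (-6.84 in CCR6+CD69+ and 0.12 in CCR6-CD69- libraries), had the same order. For these 3 the lung populations differed from each other (edgeR, adjusted p of the difference 6.34e-06, 5.20e-04 and 0.00264 in the order named). The pooled call was lost for Jchain without WT circulating replicate 4 or SCAP cKO circulating replicate 1 (highest adjusted p 0.107), and for Fads2 without WT circulating replicate 3 or SCAP cKO circulating replicate 1 (0.138). Jchain also lost it in batch 1 alone (edgeR, adjusted p 0.130), in batch 2 alone (0.259) and in limma voom (0.145). It was lost for Jchain with relative log expression factors and in either genotype alone too. Fads2 also lost it in batch 2 alone (edgeR, adjusted p 0.631), without the libraries led by Chil3 (0.0708) and in SCAP cKO libraries alone. Over all genes, 84 differed between the lung populations (1.24%; 5 higher and 79 lower in CCR6+CD69+). Of the 258 members 49 did so, and in 48 of these CCR6+CD69+ lay further from circulating.

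The lung change was compared between genotypes in a fit with 6 groups. No gene passed for a difference between SCAP cKO and WT in edgeR (0 of 6779, 0%), where 544 had an unadjusted p under 0.05. The same difference was called for 71 genes by DESeq2 and for 0 by limma voom. All 258 members had the same sign in SCAP cKO and in WT libraries, and the pooled call had been made on these same libraries. In that fit 128 members passed for SCAP cKO and 83 for WT. Fits of one genotype's libraries gave the other order, with 103 genes called (102 members by the same rule) in SCAP cKO and 219 (219) in WT. The log2 fold change of H2-Eb1 was 1.24 in SCAP cKO and 1.01 in WT libraries. That of Nkg7 was -8.23 in SCAP cKO and -7.74 in WT libraries. For Egr2 it was 1.62 in SCAP cKO and 3.18 in WT libraries, and for H2-Aa 0.37 in SCAP cKO and 1.14 in WT libraries. For Tbc1d9 it was 2.40 in SCAP cKO and 4.89 in WT libraries. These 3 differences had unadjusted p of 0.0344, 0.0467 and 0.0354 in edgeR and did not pass adjustment.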

How the data were processed

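Whole-number counts for each gene symbol were deposited (18470 rows, of which 9060 had 0 counts in every library) for 24 bulk polyA RNA libraries; per the submitters' processing notes FastQC, STAR, Salmon and mm39 were used, and their roles and versions, the annotation, strand setting and treatment of shared reads are not given in the sources used here. Some genes are not analysed here, so totals are over the rows analysed. CPM are counts scaled to 1e+06 per library. Tests used R 4.3.3 and edgeR 4.0.16 (TMM scaling, filterByExpr by the 6 groups, robust quasi-likelihood F-test) with terms for population, genotype and batch; the contrast was the mean of the lung populations minus circulating. Benjamini-Hochberg adjustment ran over 6779 genes, ± after a fold change is the standard error, and the common dispersion was 1.25. The members and the 30 gene lists (521 genes, 326 with a row, 289 tested) were chosen with earlier results of these data known, and lists are described by counts and medians only.

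Genes were named by a rule: the 12 largest rises and 12 largest falls among members with at least 5 CPM on the higher side, up to 4 called genes per list or otherwise up to 2 with the smallest p, label checks, and up to 5 genes with opposite signs. It gave 87 genes, and 20 more were named after their values were seen; 104 of these are printed and some are not reported here. S1pr1, Ccr7 and Cd38 are outside both numbers and were also named after their values were seen.

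Alternatives were relative log expression factors, DESeq2 1.42.0, limma 3.58.1 voom with sample quality weights, no filter, a stricter filter (5 CPM in 8 libraries), 6 groups, no batch term, each batch or genotype alone, the replicate number as a block, immunoglobulin genes left out, libraries under 500000 counts or led by Chil3 left out, and each library left out in turn. A required log2 fold change of at least 1 was added after seeing the data. Floors use 3 counts, and intervals are exact at 95%; both cover counting error only.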

Additional observations from a re-analysis of the deposited data

Results flagged for a closer look

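Values of the 104 named genes were examined in 312 groups (each gene in each population of 8 libraries, on log2(CPM + 1)) for a library standing far from its group, and 65 did, where chance flags about 1 in 20. The same scan gave 75 on CPM and 65 on log2 CPM with a prior count of 2; over the 6 groups of 4 it gave 83, 117 and 85 of 624 on log2(CPM + 1), CPM and log2 CPM with that prior count. The values below are CPM.

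SCAP cKO lung CCR6-CD69- replicate 4, with 129025 counts, held 26 of the 65. It was the lowest of its population for Egr2 at 15.5, Hsph1 at 0, Aldoa at 23.2, Cd74 at 5573, Scap at 0, Pmvk at 0, Itgal at 139.5, Mcm6 at 0, Spib at 163, Lck at 7.75, Fads2 at 0, Pltp at 0, Irf7 at 0, Cd4 at 0, Lrp8 at 7.75, Lifr at 7.75, Ccr2 at 0, Selplg at 85.2, Ube2h at 7.75, Tyrobp at 0, Fcer1g at 0 and Dusp4 at 0, and the highest for Cd69 at 4224, Kit at 2751, Col3a1 at 7.75 and Arhgap27os3 at 961. SCAP cKO lung CCR6+CD69+ replicate 1 was far lowest of its population for Klhl7 at 0, Pmvk at 6.90, Satb1 at 12.5 and Map2k1 at 141 and highest for Cd247 at 27.9 and Fcer1g at 98.5. WT circulating replicate 1 was far lowest of its population for Lck at 14.1, Samd3 at 1.77 and Klrb1c at 1.33 and highest for Grhl1 at 0.442 and Cdin1 at 0.442. SCAP cKO circulating replicate 1 was far lowest of its population for Ccr2 at 8.77, Eomes at 13.7 and Satb1 at 15.9 and highest for Klhl7 at 3.29. SCAP cKO lung CCR6+CD69+ replicate 3 was far lowest of its population for Pltp at 0, Irf7 at 0, Tex2 at 2.88 and Ccl4 at 0. SCAP cKO lung CCR6-CD69- replicate 2 was far highest of its population for Styk1 at 8.42, Klra8 at 13.9, Serpinb9b at 0.842 and Klra1 at 0.842. WT lung CCR6+CD69+ replicate 1 was far lowest of its population for Fcrl5 at 69.6 and H2-DMb2 at 662 and highest for Lef1 at 4.32. WT lung CCR6-CD69- replicate 3 was far highest of its population for Tnfrsf9 at 4.44, Samd3 at 8.88 and Klrb1c at 17.1. SCAP cKO circulating replicate 4 was far lowest of its population for H2-DMb2 at 76.0 and Klra8 at 0. WT circulating replicate 2 was far lowest of its population for Cd69 at 39.2 and Scap at 0. SCAP cKO circulating replicate 2 was far lowest of its population for Il18r1 at 6.27. SCAP cKO circulating replicate 3 was far lowest of its population for Map2k1 at 4.42. SCAP cKO lung CCR6-CD69- replicate 3 was far highest of its population for Cd27 at 91.8. WT lung CCR6+CD69+ replicate 3 was far highest of its population for Col3a1 at 7.86. WT lung CCR6+CD69+ replicate 4 was far highest of its population for Cd27 at 7.23. WT lung CCR6-CD69- replicate 1 was far highest of its population for Klra7 at 1.78.

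The change from circulating differed between CCR6+CD69+ and CCR6-CD69- libraries, by edgeR's test of that difference, for 18 named genes. CCR6+CD69+ minus CCR6-CD69-, on the log2 scale, was below 0 for Hsp90b1 (-1.09, adjusted p 0.00825), Jchain (-3.13, adjusted p 6.34e-06), Fads2 (-5.98, adjusted p 5.20e-04), Pltp (-3.22, adjusted p 0.00112), Ccr9 (-6.97, adjusted p 0.00264), Tex2 (-4.20, adjusted p 2.47e-07), Cd4 (-3.62, adjusted p 0.00116), Lrp8 (-3.91, adjusted p 1.13e-05), Ccl4 (-3.75, adjusted p 1.00e-06), Lifr (-4.35, adjusted p 4.52e-05), Clec10a (-4.95, adjusted p 0.00204), Selplg (-1.62, adjusted p 0.00194), Dntt (-5.97, adjusted p 9.48e-04), Sox4 (-4.66, adjusted p 0.0248), Tyrobp (-2.98, adjusted p 2.05e-05), Fcer1g (-2.97, adjusted p 4.72e-04) and Fth1 (-0.998, adjusted p 0.0172). It was above 0 for Nr4a2 (1.84, adjusted p 0.0182). The cause of these values and differences was not tested.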

How the results depend on the processing

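The calls of lung against circulating, CCR6+CD69+ against circulating, CCR6-CD69- against circulating, the lung population difference, the genotype difference and the members stayed within 1.5 times of 262, 288, 73, 84, 0 and 258 genes except as follows. DESeq2 called 724, 701, 464, 262, 71 and 716. Voom with sample quality weights called 565 in CCR6+CD69+, 128 in CCR6-CD69- and 389 between lung populations, and 144 higher and 207 lower in the pooled comparison. Without the count filter 171 passed in CCR6-CD69- and 157 between lung populations. Batch 1 alone gave 161, 160 and 21 for the pooled, CCR6+CD69+ and CCR6-CD69- comparisons and 160 members, and batch 2 alone 86, 81 and 20 with 83 members. SCAP cKO libraries alone gave 103, 78 and 13 with 102 members, and WT libraries alone 47 in CCR6-CD69-. Batches and genotypes alone hold fewer samples; for the tools and the filter the cause was not tested. Leaving out each library in turn gave 204 to 339, 209 to 382, 57 to 90, 64 to 104, 0 to 0 and 199 to 336. Without the libraries under 500000 counts there were 371 members and without those led by Chil3 241. Requiring a log2 fold change of at least 1, chosen after seeing the data, left 252 genes.

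The median of all genes moved to 0.39 under voom, 0.27 under the block, 0.17 without the filter, 0.19 in batch 1, 0.11 in batch 2 and 0.13 in WT libraries. Same-numbered libraries within a batch did not deviate together (12 pairs, r from -0.03 to 0.07, 0 over 0.1). Each r compares single differences between libraries, so it cannot exclude that same-numbered libraries share animals. The deposited column names number the populations alike, but the main fit did not pair the samples. The fit with the replicate number as a block called 198 genes, with 196 members. Among named genes, 5 that had not passed changed sign. Pax5 had log2 fold changes of 0.20 in batch 2 and, with each library left out, -0.32 (without WT circulating replicate 2) to 0.022 (without WT circulating replicate 1). Scap had 0.13 in batch 1 and 0.19 in WT libraries. Kit had -1.28 under voom, -0.51 without batch term, -1.02 in batch 2, -1.90 in WT libraries, -0.39 under the block, -1.02 without libraries under 500000 counts and -1.07 (without SCAP cKO lung CCR6-CD69- replicate 4) to 1.24 with each library left out. Pf4 had 0.0067 under voom, 2.43 in batch 2, 0.56 without libraries under 500000 counts, 0.26 without WT circulating replicate 2 and, with each library left out, -1.28 to 0.58 (without SCAP cKO circulating replicate 2). Pecam1 had 0.17 under voom, 0.61 in batch 2, 0.15 in WT libraries, 0.038 under the block and -0.66 to 0.48 (without SCAP cKO circulating replicate 2) with each library left out. With a common dispersion of 1.25 and 129025 counts in the smallest library, small changes of low genes may have been missed. The smallest detectable change was not tested.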
